A study of Mus musculus with 2 samples.

Results

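The distal microRNA cluster of the imprinted Dlk1-Dio3 region is a run of hairpin genes that starts with Mir379, contains Mir410 and ends with Mir3072. Its members were taken by position alone, as every microRNA gene on the plus strand of mouse chromosome 12 between bases 109709060 and 109747960 (mm10, GENCODE M21). This gave 39 of the 2202 microRNA genes counted. The libraries came from total RNA of the hippocampus of B6CASTF1/J mice, which are first-generation hybrids of C57BL/6J and CAST/EiJ. All were males of 10 days, and the label of each of the 2 biological replicates names 3 males, so a value stands for several animals together. The tissue is labelled as a layer of the hippocampus. Fragments below 30 nt were sequenced. No treatment or mutant is labelled, and both libraries form 1 group, so the data describe levels and the spread between libraries and hold no contrast between conditions. The labels give different animal numbers but the same donor identifier for both replicates, so the spread may in part be technical.

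MicroRNAs are cut from hairpin precursors, and each is guided to its target transcripts by its seed, bases 2 to 8 of the mature strand. The cluster is expressed from the maternally inherited chromosome, as part of a long run of noncoding transcripts that begins at Meg3 and ends over the noncoding gene Mirg. It is found in placental mammals, is strongly expressed in brain, and has been linked to dendrite growth, synapse function and neurogenesis. Several of its members are known to be edited from adenosine to inosine in the brain.

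Mature sequences were taken from RefSeq (GRCm38.p6), which held 71 of them for 38 of the 39 members. Gm27379 had none, and Mir487b, Mir376c, Mir539, Mir485 and Mir453 had 1 sequence only. Any other strand of these genes was not examined. The 71 sequences were 19 to 25 bases long, with a median of 22, and carried 65 different seeds. The deposited counts are per hairpin, so reads of the 5p and 3p arms were not separated, and no level below can be given to one arm. The sequences of the 6 members with the highest mean level are shown first, since they held most of the cluster's counts. The seed is in capitals.
miR-487b-5p: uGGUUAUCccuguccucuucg
miR-382-5p: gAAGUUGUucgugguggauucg
miR-382-3p: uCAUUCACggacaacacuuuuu
miR-541-5p: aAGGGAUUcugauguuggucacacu
miR-541-3p: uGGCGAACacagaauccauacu
miR-411-5p: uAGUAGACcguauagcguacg
miR-411-3p: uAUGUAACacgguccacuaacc
miR-409-5p: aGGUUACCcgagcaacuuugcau
miR-409-3p: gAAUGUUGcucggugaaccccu
miR-379-5p: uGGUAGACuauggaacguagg
miR-379-3p: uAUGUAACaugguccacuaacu

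The other members that differed between libraries by the test given below are shown next, in genomic order, with the seed in capitals. Mir487b, shown above, differed too.
miR-299a-5p: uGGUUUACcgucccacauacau
miR-299a-3p: uAUGUGGGacgguaaaccgcuu
miR-380-5p: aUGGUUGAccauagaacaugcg
miR-380-3p: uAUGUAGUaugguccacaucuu
miR-329-5p: aGAGGUUUucugggucucuguu
miR-329-3p: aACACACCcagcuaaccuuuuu
miR-543-5p: aAGUUGCCcgcguguuuuucg
miR-543-3p: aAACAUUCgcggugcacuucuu
miR-544-5p: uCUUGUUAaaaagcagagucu
miR-544-3p: aUUCUGCAuuuuuagcaagcuc

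The 39 members took 8.56% of the counts on microRNA genes in replicate 1 (412406 counts, exact Clopper-Pearson 95% interval 8.54% to 8.59%) and 10.9% in replicate 2 (381186 counts, interval 10.9% to 10.9%). These intervals cover counting error only. The mean share was 9.73% ± 1.66 (SD, n = 2), so the libraries differed by far more than counting error. Levels are given in CPM, counts per 1000000 counts on microRNA genes of a library, from 4815761 such counts in replicate 1 and 3495401 in replicate 2. They were not divided by the hairpin length of 61 to 123 bases, because a read covers a mature strand. Ratios between members are ratios of read counts, and how evenly the library preparation takes up different microRNAs was not analysed.

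Nearly the whole cluster was represented. At least 2 CPM in both libraries was reached by 35 of the 39 members (89.7%), against 442 of all 2202 genes. Of those 2202 genes, 1405 had 0 counts in both libraries. The other 19 plus-strand microRNA genes of the Dlk1-Dio3 region were much like the cluster, with 16 reaching that level (84.2%). Of the other members, Mir654 and Mir453 had 0 counts in both libraries, which allows up to 0.623 CPM in replicate 1 and 0.858 CPM in replicate 2. Gm27379 had 5 and 6 counts, and Mir1197 had 9 and 16. In mean level, 31 members reached 100 CPM, 17 reached 1000 CPM and 6 reached 5000 CPM. The 100 highest microRNA genes of the tissue by mean level included 14 members.

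A few hairpins held most of the cluster's counts. Mir382, Mir487b, Mir411, Mir541 and Mir409 were the 5 highest members in each library, and together they took 62.1% of the cluster's counts in replicate 1 and 74.1% in replicate 2, a mean of 68.1% ± 8.49 (SD, n = 2). The 10 highest members took 84.9% and 87.3%. The highest tested member was 16486 times the lowest in replicate 1 and 23254 times the lowest in replicate 2. In both libraries the lowest was Gm27379, on 5 and 6 counts, so these ratios are imprecise.

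Mir382 lies at chr12:109733771-109733846 and had nearly the same level in both libraries. It had 82429 counts (17117 CPM) in replicate 1 and 59136 counts (16918 CPM) in replicate 2, a mean of 17017 ± 140 CPM (SD, n = 2). It ranked 11th among all microRNA genes in replicate 1 and 14th in replicate 2. Mir487b, at chr12:109727333-109727414, had 47875 counts (9941 CPM) in replicate 1 and 139525 counts (39917 CPM) in replicate 2. Its mean of 24929 ± 21196 CPM (SD, n = 2) was the highest of the cluster, but in replicate 1 it lay below Mir382. Mir541, at chr12:109742409-109742498, had 9354 and 10330 CPM, and Mir411, at chr12:109710175-109710256, had 9931 and 7714 CPM. Mir409, at chr12:109743158-109743236, had 6857 and 5960 CPM. Mir379, the first gene of the cluster at chr12:109709060-109709125, had 6420 and 5048 CPM.

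**Figure D1:**
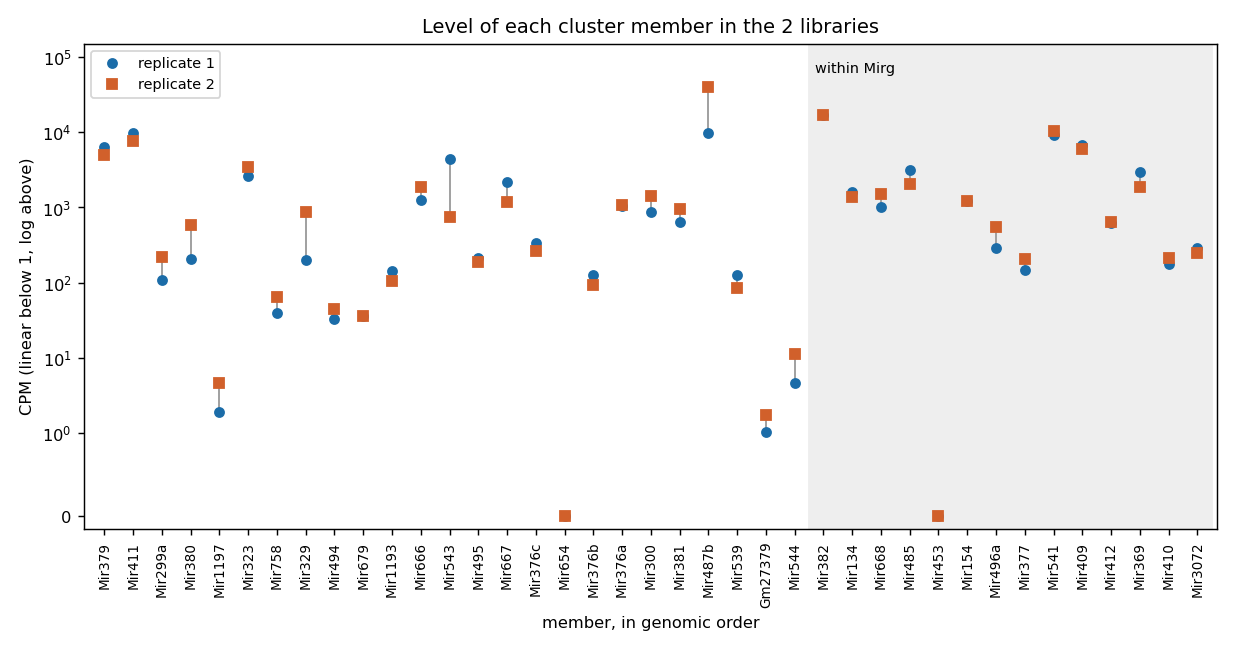
Level of each of the 39 members in CPM (vertical axis, linear below 1 and logarithmic above) in genomic order (horizontal axis), with replicate 1 as circles, replicate 2 as squares and a line joining them. Mir382 at 17117 and 16918 CPM stands beside Mir544 at 4.57 and 11.2 CPM, and Mir654 and Mir453 are at 0.

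The order of the highest members was only partly fixed by the data. Among the 10 highest by mean level, 6 of the 9 pairs of neighbours in that order had ranges over the 2 libraries that overlapped. Mir382 lay above Mir541 in both libraries, Mir411 above Mir409, and Mir379 above Mir323. Mir409 also lay above Mir379 within each library, although their ranges over both libraries overlapped. In the other overlapping pairs, such as Mir487b against Mir382 and Mir543 against Mir369, the order changed from one library to the other. Mir323 had 2612 and 3473 CPM, Mir485 had 3160 and 2027 CPM, and Mir369 had 2932 and 1867 CPM.

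**Figure D2:**
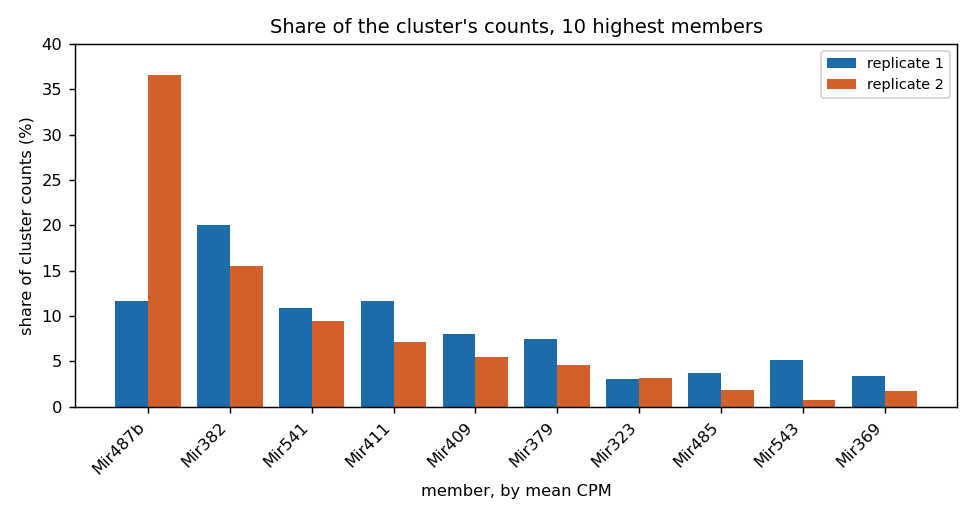
Share of the cluster's own counts (vertical axis, percent) taken by each of the 10 members with the highest mean CPM (horizontal axis), with 1 bar per library. Mir487b took 11.6% in replicate 1 and 36.6% in replicate 2, and Mir382 took 20.0% and 15.5%.

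Abundant and scarce hairpins lay side by side along the chromosome. The members span 38901 bases, with 20 to 4368 bases between neighbours and a median of 556. Of 36 pairs of neighbouring tested members, 16 were more than 10-fold apart in mean CPM, and the median ratio was 7.0. The widest ratio was between Mir544 at 7.86 ± 4.66 CPM and Mir382, which lay 2164 times higher (SD, n = 2), and the widest gap of the cluster lies between these same genes. Between Mir539 and Mir382, Gm27379 was also low, at 1.04 and 1.72 CPM. Position in the order and mean CPM were barely related over the 39 members (Spearman's rho 0.11), and so were hairpin GC content and mean CPM (0.10). These are descriptions over genes of 1 transcribed region in the same libraries.

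In 3 runs of 13 members each, the first run, Mir379 to Mir543, held 29.6% of the cluster's counts in replicate 1 and 19.1% in replicate 2. The middle run, Mir495 to Mir382, held 38.0% and 56.9%. The last run, Mir134 to Mir3072, held 32.3% and 24.0%. The median member of the last run had 1224 CPM, against 396 CPM in the first run and 299.1 CPM in the middle run. Mir382 and Mir487b, the highest members by mean CPM, both lie in the middle run. Of all counts on microRNA genes, the middle run held 3.26% in replicate 1 and 6.21% in replicate 2, and without Mir487b it held 2.26% and 2.22%.

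Most of the cluster lies before the annotated start of Mirg at base 109729764. Of the 39 members, 25 are there and 14 lie within Mirg. Of these 14, Mir134, Mir485, Mir377 and Mir410 were whole within an exon of some Mirg transcript, and Mir453, Mir154, Mir496a, Mir541 and Mir409 were whole within introns. The hairpins of Mir382, Mir668, Mir412, Mir369 and Mir3072 crossed an exon edge. Mir382 overlapped an exon by 2 bases only, and Mir668 and Mir369 by 1 base each. Median levels were 838 CPM for the exonic group, 1277 CPM for those crossing an edge and 1224 CPM for the intronic group. All exceeded the median of 299.1 CPM of the 25 members before Mirg, but groups of 4 or 5 genes allow no ranking.

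The nearest plus-strand microRNA gene before the cluster is Mir882, 26.8 kb away. It had 0 counts in both libraries. The nearest after it is Gm27299, 926 kb away, also at 0 in both.

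Members linked to dendrites and synapses were all well represented. Mir134, which limits the size of dendritic spines through the kinase gene Limk1, had 1606 and 1360 CPM. Mir485, which acts on the synaptic vesicle protein gene Sv2a, had 3160 and 2027 CPM. Mir381 and Mir329, which take part in activity-dependent dendrite growth, had 647 and 949 CPM and 199 and 879 CPM. Mir495, a repressor of Bdnf, had 213 and 190 CPM. With Mir541, the 6 genes took 1.52% of all counts in replicate 1 and 1.57% in replicate 2. Mir329 alone of these 6 differed between the libraries by the test given below, where 18.7% of all tested genes did.

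The 3 members that repress N-cadherin during neurogenesis, Mir369, Mir496a and Mir543, summed to 0.761% of counts in replicate 1 and 0.316% in replicate 2. Mir543 made up most of that difference, with 4395 CPM in replicate 1 and 744 CPM in replicate 2. Mir496a ran the other way, with 286 and 553 CPM, and did not reach the ratio minimum.

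Among the members known for editing in the brain, Mir379 and Mir411 were far more abundant than the Mir376 genes. Mir376a had 1040 and 1069 CPM, Mir376c had 338 and 261 CPM, and Mir376b had 124.8 and 92.4 CPM. Edited and unedited reads were not separated in the counts. The 5p strands of Mir376b and Mir376c share their seed and 21 of 22 bases, and those 2 hairpins have 31 consecutive bases in common. Reads that fit several places are not in the gene counts, so both levels are uncertain and may be too low.
miR-376b-5p: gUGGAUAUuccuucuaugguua
miR-376c-5p: gUGGAUAUuccuucuauguuua
miR-376b-3p: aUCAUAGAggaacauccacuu
miR-376a-3p: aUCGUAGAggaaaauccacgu

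The last gene of the cluster, Mir3072 at chr12:109747878-109747960, had 293 and 251 CPM. It lies 4082 bases beyond its neighbour Mir410, which had 175 and 211 CPM.

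Members with the same seed could be close or far apart in level. Of the 65 seeds, 6 were held by 2 members each. The 5p strands of Mir379 and Mir1193 have the same seed and agree at 10 of 20 bases read from the 5' end. Yet Mir379 was 45.4 times as abundant as Mir1193 in replicate 1 and 47.7 times in replicate 2. The 3p strands of Mir379 and Mir411 share a seed and 20 of 22 bases. Mir411 was 1.55 times as abundant in replicate 1 and 1.53 times in replicate 2. Mir410 was 5.29 and 4.71 times as abundant as Mir494, whose 5p strand has its seed. Mir758 was 21.1 and 14.3 times as abundant as Mir1197, where the lower value rests on 9 and 16 counts. Mir453 shares a seed with Mir496a and had 0 counts. Seeds of 11 members were also found in microRNAs outside the cluster, among them miR-329-3p with miR-362-3p and miR-410-3p with miR-344d-3p.
miR-1193-5p: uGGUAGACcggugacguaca
miR-410-5p: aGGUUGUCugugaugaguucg
miR-494-5p: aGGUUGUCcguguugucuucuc

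Hairpins with near-identical 3p strands but different seeds also varied in how alike their levels were, with both arms counted together. The 3p strands of Mir381 and Mir300 agree at 19 of 22 bases, with 1 mismatch in the seed. Mir300 had 858 and 1402 CPM, 1.33 and 1.48 times Mir381. The 3p strands of Mir376a and Mir376b agree at 18 of 21 bases with 1 mismatch in the seed, and Mir376a was 8.34 and 11.6 times as abundant. The 3p strands of Mir543 and Mir495 agree at 18 of 22 bases with 2 mismatches in the seed. Mir543 was 20.7 times as abundant as Mir495 in replicate 1 and 3.92 times in replicate 2.
miR-381-3p: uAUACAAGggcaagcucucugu
miR-300-3p: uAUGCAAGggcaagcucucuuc
miR-495-3p: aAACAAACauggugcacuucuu

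The mature strands of the cluster also share letters that the choice by position did not use. A seed of the form GGUNNNC, read on the mature strand, occurred in 14 of the 71 member sequences (19.7%) and in 4 of 1608 mature microRNAs elsewhere (0.249%). Besides miR-453, the 14 were 5p strands. Their genes ranged from Mir453 at 0 CPM to Mir487b, with a median of 179 CPM. The other 25 members had a median of 1055 CPM. The letters ACANGG, searched anywhere on the mature strand, occurred in 11 member sequences (15.5%), all of them 3p strands, and in 41 of 1608 elsewhere (2.55%). Most of these begin directly after base 6. Of the 33 mature sequences from the other plus-strand genes of the region, 1 had each pattern. Both patterns were picked after reading the sequences and are descriptions. The ACANGG letters are in capitals in these examples, from members at 3.22 to 8822 CPM in mean level.
miR-411-3p: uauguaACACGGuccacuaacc
miR-323-3p: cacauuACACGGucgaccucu
miR-485-3p: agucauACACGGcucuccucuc
miR-369-3p: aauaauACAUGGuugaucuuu
miR-154-3p: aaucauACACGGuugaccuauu
miR-1197-3p: uaggacACAUGGucuacuucu

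A small number of members differed strongly between the libraries. Mir487b, Mir329, Mir380, Mir299a and Mir544 were higher in replicate 2, and Mir543 was higher in replicate 1. The test was an exact two-sided binomial test per gene given the library totals, with Benjamini-Hochberg adjustment over the 540 genes that had at least 10 counts over both libraries. Differing genes had to pass an adjusted p of 0.05 and a log2 ratio of 1 in either direction. The test sets 1 library against 1 library, not conditions, and treats each read as independent, so its p-values cover counting error only. Of the 37 members tested, 6 differed (16.2%), against 18.7% of all tested genes. By direction, 5 members were higher in replicate 2 (background 11.5%) and 1 in replicate 1 (background 7.22%), and with DESeq2 factors this split was 4 and 2. The members' share was thus near the background.

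Mir329 had the highest ratio of the cluster, with 957 counts (199 CPM) in replicate 1 and 3072 counts (879 CPM) in replicate 2, a log2 ratio of 2.14 or 4.42-fold. Mir487b followed at 2.01, or 4.02-fold. Mir380 had 1007 counts (209 CPM) and 2036 counts (582 CPM), a log2 ratio of 1.48. Mir299a, at 526 and 773 counts, had a log2 ratio of 1.02, just past the minimum, and it fell short of it with TMM sizes (0.93) and DESeq2 factors (0.85). Mir299a also has 21 of the 22 bases of miR-299a-5p in common with Mir299b on the opposite strand, so its level is uncertain. Mir544 differed at low depth, with 22 and 39 counts and a log2 ratio of 1.27. Mir543 ran the other way, with 21167 counts (4395 CPM) in replicate 1 and 2602 counts (744 CPM) in replicate 2, a log2 ratio of -2.56, 5.90-fold higher in replicate 1.

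**Figure D3:**
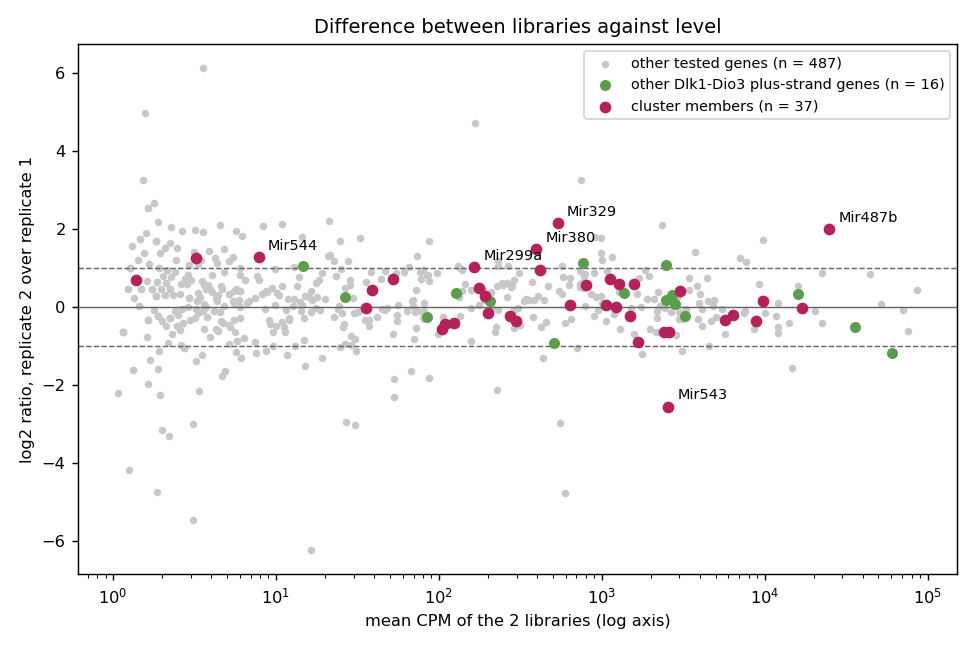
Log2 ratio of replicate 2 over replicate 1 (vertical axis) against mean CPM (horizontal log axis) for the 540 tested genes, with the 37 tested members, the 16 tested plus-strand genes elsewhere in the region and all others in separate colours, and dashed lines at 1 and -1. The 6 named members lie past the dashed lines, while Mir1197, also past them, did not pass the adjusted p.

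Of the 31 members that did not differ by this rule, Mir1197 had a log2 ratio of 1.26 on 9 and 16 counts, Mir496a of 0.95 and Mir667 of -0.89. Without the ratio minimum, 30 of the 37 members (81.1%) passed the adjusted p, against 55.7% of all tested genes. Among the 16 tested plus-strand genes elsewhere in the region, 14 passed (87.5%). With more counts the test passes smaller ratios, and these shares were not matched for depth. The 7 members that did not pass were Mir382, Mir154, Mir376a, Mir412, Mir679, Mir1197 and Gm27379. Mir154 had 1219 and 1228 CPM (adjusted p 0.795, binomial test with Benjamini-Hochberg adjustment), and Mir412 had 624 and 645 CPM (adjusted p 0.362). The median absolute log2 ratio was 0.49 over the 37 members and 0.54 over all tested genes, and 81.1% of members lay within 2-fold against 75.9%. The order of members was much the same in both libraries, with Spearman's rho 0.954 over the 37 tested members and 0.954 over the 540 genes. The common biological coefficient of variation that edgeR estimated was 38.6%, pooled over 427 genes after TMM scaling and apart from counting error. The median coefficient of variation of the tested members was 23.9%, from 2 values per gene scaled by library totals. These are unlike measures and cannot be compared directly.

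All 6 differing members lie among the 24 tested members before Mirg, and 0 of the 13 tested members within Mirg differed, where 18.7% of all tested genes did. By the same binomial test, 11 of these 13 had an unadjusted p under 0.05 and 10 an adjusted p under 0.05, and each of the 13 lay within 2-fold. With TMM sizes or DESeq2 factors, too, 0 of them differed. The difference between these counts was not tested. Median absolute log2 ratios were 0.58 before Mirg and 0.24 within it. The groups also differed in median level, at 299.1 CPM before Mirg and 1250 CPM within it. Before Mirg, 6 members have 20 or more bases in common with another hairpin, and within it 0 do. The part of level or shared bases in this split was not tested. Neighbours did not move as a block. Of 36 pairs of neighbouring tested members, 20 had ratios of the same sign, and Mir543, at -2.56, lies between Mir666 at 0.59 and Mir495 at -0.16 in log2 ratio.

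**Figure D4:**
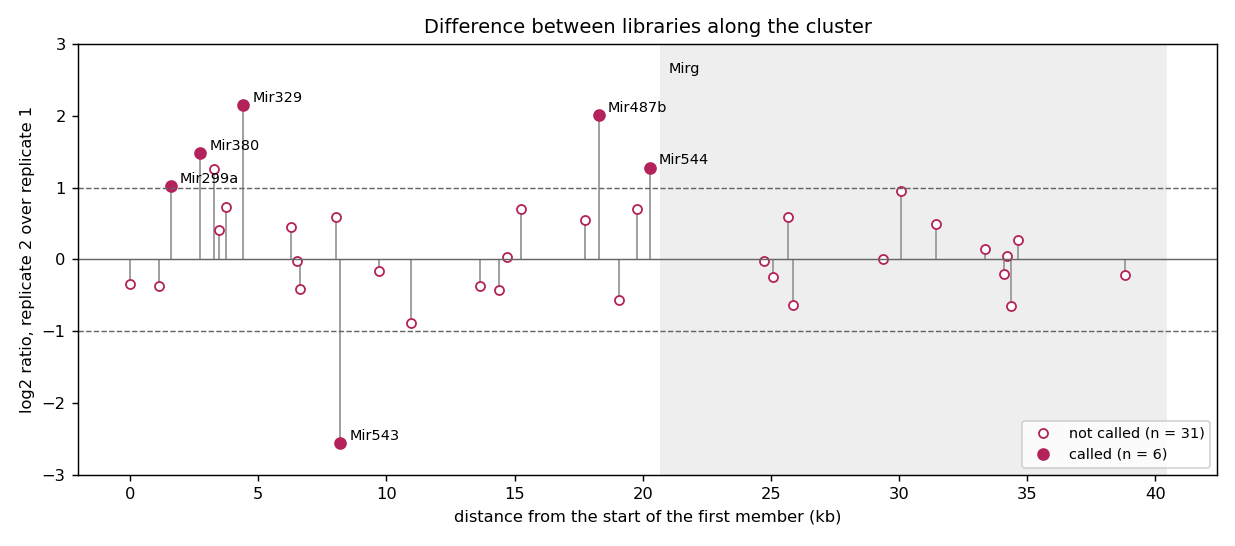
Log2 ratio of replicate 2 over replicate 1 (vertical axis) against distance from the start of the first member in kb (horizontal axis) for the 37 tested members, with filled points for the 6 that differed, open points for the 31 that did not, and Mirg shaded. The filled points lie to the left of Mirg, from Mir299a to Mir544.

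The direction of the difference in the cluster's summed share between libraries rested on Mir487b. The log2 ratio of the summed counts was 0.35, and without Mir487b, an alternative chosen after seeing the data, it was -0.13, with shares of 7.57% in replicate 1 and 6.91% in replicate 2. Mir487b has 20 bases in common with Mir376b, at bases 63 to 82 of its hairpin. That stretch overlaps no base of miR-487b-5p, and overlap with a 3p strand of Mir487b was not analysed here. In Mir376b the shared bases cover 9 of the 21 bases of miR-376b-3p. Mir411 and Mir758 likewise have 21 bases in common, which reach 12 of the 22 bases of miR-411-3p.

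The other 19 plus-strand microRNA genes of the region, from Mir770 to Mir882, moved the opposite way in sum, from 15.6% of counts in replicate 1 to 10.3% in replicate 2. Most of that change lay in Mir127, which had 84779 and 37071 CPM. Without it, also chosen after seeing the data, the shares were 7.16% and 6.58%. Of the 16 tested, 4 differed (25%, against 18.7% of all tested genes), 3 of them higher in replicate 2 (background 11.5%). With Mir127 and Mir487b set aside, the summed log2 ratios were -0.12 for these genes and -0.13 for the cluster.

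The libraries held the microRNAs of brain tissue, and some markers of other cells moved between them. The 16 neuronal and brain genes took 8.11% and 10.5% of counts, although 12 of them share bases with another gene. None was at 0 in both libraries, but only 14 reached 2 CPM in both. Of the 14 tested, 8 had log2 ratios above 0 and 6 below. Red blood cell genes (3) took 0.123% and 0.00764%, and choroid plexus and ciliated cell genes (6) took 0.258% and 0.533%. Endothelial Mir126a took 1.49% and 0.930%, oligodendrocyte genes (3) 0.104% and 0.174%, and myeloid genes (4) 0.0495% and 0.0906%. In both the oligodendrocyte and the myeloid set, 1 gene had a log2 ratio below 0. Liver Mir122 had a mean of 35.5 CPM. Of 5 striated muscle genes, 4 were at 0 in both and Mir206 was higher in replicate 1, at 102 against 32.6 CPM (log2 ratio -1.65). Bases are shared with another gene by 4 of these 5, and reads that fit several places are not in the gene counts. A 0 among the muscle genes therefore need not mean absence. The part of these cell types in the members' differences was not tested. Fewer cells of a type and less RNA per cell cannot be told apart in such tissue RNA.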

How the data were processed

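Raw microRNA gene counts were deposited by the authors, with 1 table per library, and the notes deposited with them name the genome mm10 and the annotation GENCODE M21. No aligner, counter or trimming step is recorded in those notes. Identifiers stand in column 1, followed by 3 columns of counts, for unstranded, sense and opposite-strand reads. Column 3 was thus taken as sense. In replicates 1 and 2, 38.9% and 34.6% of reads were counted on genes, 37.7% and 39.8% fitted several places and stood outside the gene counts, 5.74% and 6.09% lay outside genes, and 17.7% and 19.5% were unmapped. Library sizes hold gene counts only. Mapping of CAST/EiJ alleles was not analysed.

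All 2202 identifiers matched the annotation. Log2 ratios had 0.5 counts added. A member was marked as a copy where 20 or more bases in a row also occur in a different hairpin (6 of 39). A count of 0 allows up to 3 counts. Members, lists and tests were chosen with earlier results of these data known. Full values go to the 10 highest members, those differing with a mean of at least 100 counts, the first and last genes and the role lists. Mir544 and other members were added after their values were seen. The test was checked on simulated counts. Alternatives changed scaling, filters, ratio minimum, strand, added counts, thresholds, denominator, copies and split, or left out a replicate. Ratios used SciPy 1.17.1 with pandas 2.3.3 in Python 3.11.15, and scaling used edgeR 4.0.16 and DESeq2 1.42.0 in R 4.3.3.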

Additional observations from a re-analysis of the deposited data

How the results depend on the processing

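Scaling moved the median log2 ratio of all tested genes from 0.17 (totals) to 0.086 (TMM) or 0.0051 (DESeq2 factors). Members differing numbered 5 of 37 with TMM and 6 of 37 with DESeq2 factors, against 17.8% and 18.7% of all tested genes. With DESeq2 factors, 2 were higher in replicate 1 because Mir667 passed (-1.05) and Mir299a did not. The median over members moved from 0.046 to -0.12 with DESeq2 factors. Ratios near 0 changed sign without a call: with TMM, Mir376a (-0.046), Mir154 (-0.075) and Mir412 (-0.040), and with DESeq2 factors these (-0.13, -0.16, -0.12) and Mir541 (-0.024). Without the ratio minimum 30 differed, against 55.7% of all tested genes, with 16 higher in replicate 2 and 14 in replicate 1. At a minimum of 1.5 there were 3, against 9.81% of all tested genes, with 2 higher in replicate 2. Unstranded counts left 32 tested members and 4 differing, 3 of them higher in replicate 2. Of all 514 genes tested on unstranded counts, 18.7% differed. The summed log2 ratio was 0.18 with DESeq2 factors and -0.13 without Mir487b, both added after seeing the data.

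The mean share of 9.73% was 4.37% of mapped reads, 6.30% without the 6 members with copies, and 8.56% to 10.9% with a replicate left out. The 3 highest members took 52.4% of cluster counts and the 10 highest 86.1%, by construction, and the 5 highest took 62.1% to 74.1% with a replicate left out. Cut at the middle of the span in bases, 54.1% of counts lay in the first part and 45.9% in the last. With a replicate left out, the runs of 13 held 19.1% to 29.6%, 38.0% to 56.9% and 24.0% to 32.3%. Detected members numbered 29 to 37 over thresholds of 1 to 100 CPM, and 35 to 36 with a replicate left out. The test between libraries has no value with 1 library. Depth limits Mir1197, Gm27379 and Mir544.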

Other observations

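Members with an annotated microRNA gene on the opposite strand depended on the strand of the count. Mir299a, Mir380, Mir376a, Mir539 and Mir409 are overlapped by Mir299b, Gm25750, Gm25252, Gm44322 and Gm24321. In the sense counts these 5 members held 40170 counts in replicate 1 and 27676 in replicate 2, which is 9.74% and 7.26% of the cluster's counts, and the opposite-strand genes held 0 in both libraries. In the unstranded column the same 5 members had 0 counts in both. Mir409, the fifth most abundant member, thus had 6857 and 5960 CPM in one column and none in the other. Over all 39 members the opposite-strand column held 2 counts in replicate 1 and 0 in replicate 2.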
